A study of Homo sapiens with 24 samples.

Results

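KLHL38, KDR, NALCN, FGR, SLC2A14, ABI3BP and FBLN5 are 7 genes whose RNA was high in MCF-10A MYC-ER cells before any 4-hydroxytamoxifen (4-OHT) was given and fell after it. They were picked by hand for that pattern from a table of 60668 gene rows, of which 22158 held enough counts to be tested, and no numeric threshold was part of the choice. Their levels in the MYC-ER libraries are therefore given as a description, with no test. The choice named no change over time in the parental line, and those changes were tested. The parental 0 h libraries may have entered it, since a level is high only relative to another. All 7 genes passed the filter on low counts, KLHL38 only through the MYC-ER libraries, because its parental libraries held 0 to 11 counts. The parental libraries held 1 to 17 counts of SLC2A14, near the limit of that filter.

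MCF-10A is an immortalised, non-tumorigenic human mammary epithelial line, and MYC-ER is a fusion protein in which the transcription factor MYC is tied to a piece of oestrogen receptor and becomes active when 4-OHT is bound. Both lines were grown as 3D cultures on Matrigel, given 1 μM 4-OHT from day 3 onwards for 0, 8, 24 or 48 h, and all collected on day 5, so the 0 h cells had the same time in culture without the drug. RNA was read from poly(A)-selected, strand-marked libraries. Each of the 8 groups, parental (wild-type) or MYC-ER at 0, 8, 24 or 48 h, had 3 libraries, 24 in all. The labels speak of wells seeded in triplicate and name neither a promoter for the fusion nor a clone, so p-values measure the spread between these libraries, which may be technical.

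KDR (VEGFR2) is the main signalling receptor for vascular endothelial growth factors and is best known from endothelial cells. FGR is a Src-family tyrosine kinase known mostly from myeloid cells, and KLHL38 is a Kelch-like protein, a family whose members often bring substrates to the CUL3 ubiquitin ligase. NALCN forms a sodium leak channel that helps to set the resting potential of neurons, SLC2A14 (GLUT14) is a glucose transporter closely related to SLC2A3 (GLUT3), FBLN5 is a secreted fibulin that organises elastic fibres, and ABI3BP is an extracellular matrix protein.

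The stretches before the annotated starts of KDR and FGR are shown because these genes, known from different cell types, both fell at 8 h and were back near or towards their first level at 48 h in both lines; at 24 h in parental cells they parted, KDR being back and FGR at its lowest. KDR lies at chr4:55078259-55125595 and FGR at chr1:27612064-27635277 (GENCODE 29, GRCh38), both on the minus strand. The stretches, from RefSeq's GRCh38.p14, are chr4:55125596-55125845 and chr1:27635278-27635435, read 5′ to 3′ on the minus strand with CpG dinucleotides in capitals.
KDR: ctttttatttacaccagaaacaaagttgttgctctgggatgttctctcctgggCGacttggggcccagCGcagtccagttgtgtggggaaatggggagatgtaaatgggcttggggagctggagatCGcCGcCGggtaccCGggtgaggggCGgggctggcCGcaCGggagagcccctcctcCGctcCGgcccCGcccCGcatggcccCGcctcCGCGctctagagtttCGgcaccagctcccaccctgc
FGR: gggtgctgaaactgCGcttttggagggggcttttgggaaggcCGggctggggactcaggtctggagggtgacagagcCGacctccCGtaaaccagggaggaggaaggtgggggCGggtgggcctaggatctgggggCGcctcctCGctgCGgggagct
The KDR stretch of 250 bases held 17 CpGs at 65.2% GC, and the FGR stretch of 158 bases held 8 at 67.7% GC. The FGR stretch is shorter because annotated exon bases (GENCODE 29) were left out. The full 250 bases before that FGR start held 15 CpGs at 67.2% GC. FGR has a second annotated start further downstream, and the 250 bases before it, not shown, held 4 CpGs at 60.8% GC. Motifs were searched in 8 RefSeq promoter windows (250 bases before to 50 after a start) of KDR, FGR, NALCN, SLC2A14, ABI3BP and FBLN5. No window of KLHL38 was searched. On both strands, none of the 8 held the E-box CACGTG, the forkhead motif GTAAACA or the AP-1 motif TGANTCA, against 7.26%, 3.42% and 7.71% of 35116 windows. The TEAD motif GGAATG was in 1 of the 8 (14% of all windows).

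The TATAAA motif was in 2 of the 8 windows, those of the matrix genes, against 11.5% of all windows. It is shown in capitals with its flanks, for FBLN5 on the gene's strand and for ABI3BP on the other strand, so that it reads TTTATA, at chr14:91947048-91947077 and chr3:100993640-100993669 (GRCh38.p14, sequence of the minus strand).
FBLN5: gatattgttaatTATAAAaagctgcgcctc
ABI3BP: ataatttgaattTTTATAtcacagaaggaa
The FBLN5 motif begins at position -33 from the start of that window's transcript and the ABI3BP motif at -236. FBLN5 has a second window, without the motif. A match is a description of these letters and not a shown binding site.

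Library totals ran from 136860029 to 182438505 counts, and 0 counts allow a level of up to 0.0219 CPM (a count expressed per fixed number of counts in its library), taking 3 counts as the limit, which covers counting error only. Replicates differed by more than sampling noise, with a chi-square per degree of freedom of 8.45 to 63.3 in 7 of the groups and of 159 to 261 in parental 0 h. Parental 0 h, the baseline of each parental comparison with 0 h, thus stands apart in its spread. Each parental result of the 7 genes that changed its call without 1 of its libraries is given below with that value. Calls of the other named genes, SLC2A3 aside, were not checked singly in this way. Mitochondrial transcripts took 9.24% to 9.71% of counts in MYC-ER at 0 h and 5.61% to 6.78% in the other MYC-ER groups, so the share was highest where the 7 genes were highest. The 8 h libraries of MYC-ER spanned 5.61% to 6.58%. Those of 24 h, spanning 6.34% to 6.65%, overlapped both these and the 48 h libraries, which spanned 6.57% to 6.78%. Both ends of the range thus rose over the drug times, as KLHL38 and KDR did, though neighbouring times overlapped. The part of the mitochondrial share in the levels of the 7 genes was not tested. In parental cells the share was 3.86% to 7.78%, lowest in 0 h replicate 1. MYC averaged 387 CPM in untreated MYC-ER cells and 795 CPM after 8 h, against 532 and 463 CPM in parental cells. ESR1, to which the receptor piece of the fusion could add reads, had 78 to 96 counts in untreated MYC-ER libraries, 0 to 5 after 8 h and 18 to 54 in parental libraries, so neither gene gives a clear check of the labels. All 10 epithelial markers were above 1 CPM in some library. Their sum was 14570 to 15030 CPM in untreated MYC-ER cells, against 24350 to 31030 CPM in untreated parental cells. After 8 h of drug the MYC-ER sum was 16110 to 18080 CPM, and later 11180 to 11850 CPM. In MYC-ER against parental at 0 h, 7 of the 10 were lower and 2 higher (median log2 -1.47), against 32.7% and 31.6% of all genes. From 0 to 8 h in MYC-ER cells 7 rose and 2 fell (median 1.20), against 32.2% and 35.4% of all genes. Most of these markers thus moved opposite to the 7 genes, and their part in the results was not tested.

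**Figure D1:**
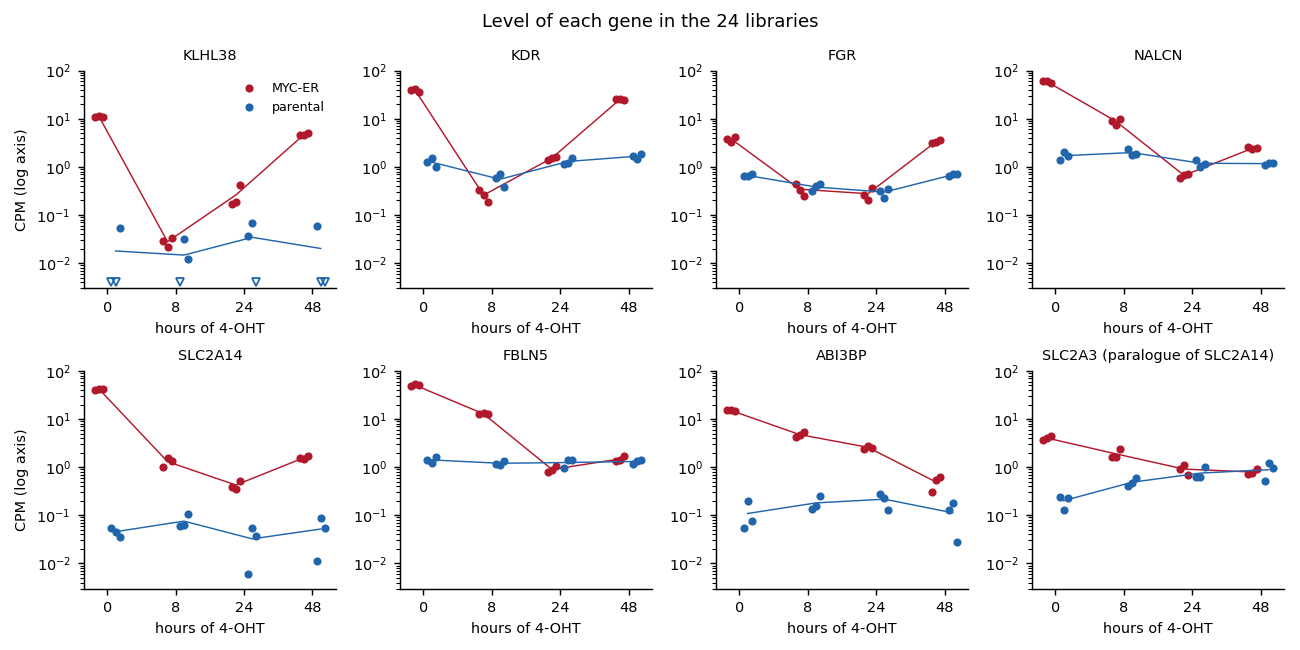
Level of the 7 genes and of SLC2A3 in the 24 libraries, in CPM on a log axis, by hours of 4-OHT. Points are libraries, lines join group means, red is MYC-ER, blue is parental, and open triangles at the bottom are libraries with 0 counts. KLHL38, KDR and FGR return towards their first level at 48 h in MYC-ER cells, and the other 4 genes stay low.

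The 7 genes fell in 2 ways. KLHL38, KDR and FGR were lowest at 8 or 24 h and had come back to 43.1%, 65.5% and 89.1% of their MYC-ER 0 h mean by 48 h. NALCN, SLC2A14, ABI3BP and FBLN5 stood at 4.15%, 3.79%, 3.24% and 2.94% at that time. In every one of the 7, the 3 MYC-ER libraries at 8 h and at 24 h lay below all 3 at 0 h, as they did for 39.1% and 36.4% of all tested genes. At 48 h this held for 6 of 7, FGR being the exception, against 30.4% of all genes. Nothing is read from these shares, because the choice of genes used them. In bulk libraries, fewer cells that express a gene and less of its RNA per cell cannot be told apart.

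KLHL38 (ENSG00000175946, chr8:123645527-123652950, minus strand) showed the deepest fall. Its MYC-ER libraries held 1885, 1979 and 1865 counts at 0 h, 4, 3 and 5 at 8 h, 29, 29 and 67 at 24 h, and 811, 685 and 847 at 48 h. None of these groups overlapped. The means were 11 ± 0.18, 0.0279 ± 0.0061, 0.260 ± 0.147 and 4.75 ± 0.269 CPM (SD, n = 3), so the 8 h level was 0.253% of the first. Relative to 0 h, the log2 differences were -8.58 (SE 0.75) at 8 h, -5.40 (SE 0.59) at 24 h and -1.21 (SE 0.48) at 48 h. Parental libraries held 0 counts in 6 of 12 and at most 11 counts in the rest, so the return at 48 h brought MYC-ER cells back to a level not seen in any parental library.

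KDR (ENSG00000128052), the VEGF receptor, followed the same course. It stood at 39.0, 41.7 and 36.6 CPM in untreated MYC-ER cells, 0.333, 0.255 and 0.187 at 8 h, 1.42, 1.53 and 1.63 at 24 h, and 26.3, 25.6 and 24.9 at 48 h. The 4 groups were separate in every library. Against 0 h the log2 differences were -7.24 (SE 0.22), -4.68 (SE 0.19) and -0.61 (SE 0.16). Parental cells held 1.25 ± 0.27 CPM at 0 h (SD, n = 3), far below untreated MYC-ER cells (log2 difference 4.96, SE 0.19). At 8 h the order was turned: all 3 MYC-ER libraries lay below the parental range of 0.377 to 0.703 CPM (log2 difference -1.10, SE 0.23), and KDR was the only one of the 7 genes with this order at 8 h, which 31.7% of all genes had.

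FGR (ENSG00000000938), the Src-family kinase, was the lowest of the 7 per length of transcript in untreated MYC-ER cells, with 3.83, 3.29 and 4.26 CPM. It fell to 0.448, 0.333 and 0.247 CPM at 8 h and 0.256, 0.208 and 0.365 at 24 h, and stood at 3.21, 3.23 and 3.70 at 48 h. The 8 h and 24 h libraries overlapped with each other, and the 48 h libraries overlapped with those at 0 h. This gave log2 differences from 0 h of -3.47 (SE 0.22), -3.78 (SE 0.22) and -0.17 (SE 0.19). At 8 and 24 h the MYC-ER libraries overlapped the parental ones, with log2 differences between lines of -0.16 (SE 0.22) and -0.11 (SE 0.22), and at 48 h they again stood above them (2.30, SE 0.21).

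NALCN (ENSG00000102452, chr13:101053776-101416492, minus strand), the sodium leak channel, fell more slowly. It stood at 60.3, 59.5 and 55.8 CPM in untreated MYC-ER cells, 9.09, 7.59 and 10.1 at 8 h, 0.594, 0.688 and 0.711 at 24 h, and 2.55, 2.31 and 2.43 at 48 h. The lowest level, at 24 h, was 1.14% of the first, with no overlap between any 2 of these groups. The log2 differences from 0 h were -2.71 (SE 0.13), -6.46 (SE 0.16) and -4.59 (SE 0.14). At 24 h the MYC-ER libraries lay below the parental range of 1.01 to 1.39 CPM (log2 difference -0.84, SE 0.15), an order seen in 1 of the 7 genes and in 30.5% of all genes. An antisense gene, NALCN-AS1, overlaps the locus and held 0 to 5 counts per library, and those that overlap KLHL38 and KDR held at most 1.

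SLC2A14 (ENSG00000173262, chr12:7812512-7891148, minus strand), the glucose transporter, was far apart between the lines. Its MYC-ER libraries held 6805, 7543 and 7352 counts at 0 h, 137, 218 and 205 at 8 h, 67, 57 and 82 at 24 h, and 270, 219 and 291 at 48 h. The parental 0 h libraries held 9, 8 and 6. The means in MYC-ER were 41.7 ± 1.95, 1.30 ± 0.284, 0.425 ± 0.0883 and 1.58 ± 0.145 CPM (SD, n = 3), and the 8 h and 48 h libraries overlapped. From 0 h, the log2 differences were -5.00 (SE 0.26), -6.62 (SE 0.29) and -4.72 (SE 0.26). NANOGP1, a pseudogene on the other strand of the locus, held 0 to 17 counts per library. Even at its lowest the MYC-ER level lay above every parental library, which reached 0.105 CPM.

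Counts for SLC2A14 are uncertain where its sequence is close to that of SLC2A3, so the pair was compared. Their coding sequences were identical at 96.8% of 1488 aligned bases (GENCODE 29). The stretch of 90 coding bases shown was chosen for having the most differences inside an exon of each gene. It has 8, in capitals, whereas 3.23% of all aligned bases differed. It lies at chr12:7828766-7828855 in SLC2A14 and chr12:7930542-7930631 in SLC2A3, minus strand.
SLC2A14: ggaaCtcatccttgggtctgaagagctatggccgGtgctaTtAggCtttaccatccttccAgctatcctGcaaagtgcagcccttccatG
SLC2A3: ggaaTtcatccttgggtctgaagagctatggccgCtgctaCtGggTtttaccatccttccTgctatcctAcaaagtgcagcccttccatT
Of all 150-base stretches of the longest SLC2A14 transcript, 1.74% were also found in SLC2A3 transcripts, and none of those within the coding sequence were; of 75-base stretches, 12.3% were. Reads were 150 bases long and paired, and how the counting placed a read that matched both genes is not given in the sources used here.

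The ratio between the counts of the pair changed over time and differed between the lines. Untreated MYC-ER libraries held 9.9 to 10.7 SLC2A14 counts for each SLC2A3 count. The ratio was 0.566 to 0.932 after 8 h, 0.32 to 0.752 after 24 h and 1.89 to 2.18 after 48 h. In parental libraries the ratio was 0.00943 to 0.348. SLC2A3 itself stood at 3.72, 3.99 and 4.34 CPM in untreated MYC-ER cells, and after 48 h at 0.715, 0.746 and 0.918 CPM, a log2 difference of -2.34 (SE 0.28). In parental cells it went the other way, from a range of 0.131 to 0.245 CPM without drug to one of 0.51 to 1.2 CPM after 48 h (log2 difference 2.14, SE 0.30, edgeR quasi-likelihood adjusted p = 2.33e-05). A part of the SLC2A3 counts in MYC-ER at 0 h may belong to SLC2A14, and how large it is was not tested.

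**Figure D2:**
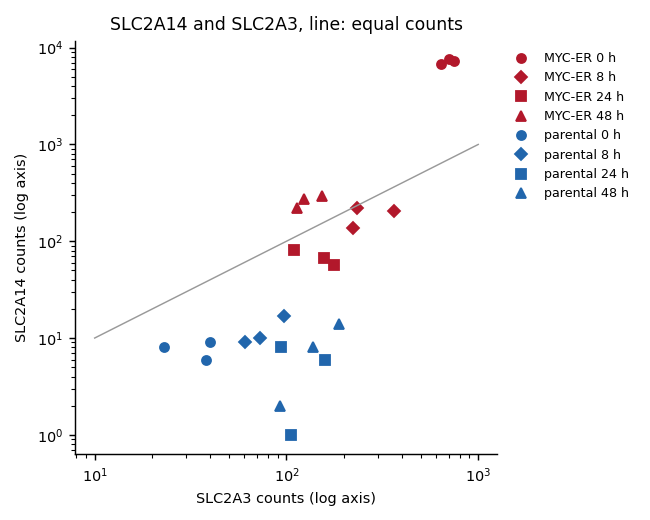
SLC2A14 counts against SLC2A3 counts in each of the 24 libraries, both on log axes, with a grey line where they are equal. The 3 MYC-ER 0 h libraries lie far above the line, at 9.9 to 10.7 SLC2A14 counts per SLC2A3 count, and all parental libraries lie below it.

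ABI3BP (ENSG00000154175, chr3:100749156-100993515, minus strand), the matrix protein, was the one gene of the 7 that fell at each step. It stood at 15.1, 15.1 and 14.8 CPM in untreated MYC-ER cells, 4.17, 4.76 and 5.34 at 8 h, 2.43, 2.79 and 2.53 at 24 h, and 0.311, 0.528 and 0.620 at 48 h. No group overlapped with the next. Its log2 differences from 0 h were -1.66 (SE 0.32), -2.54 (SE 0.33) and -4.95 (SE 0.38). Parental libraries ran from 0.0277 to 0.283 CPM, so MYC-ER cells at 48 h still stood above all parental libraries of that time (log2 difference 2.08, SE 0.41).

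FBLN5 (ENSG00000140092, chr14:91869412-91947987, minus strand), the elastic fibre fibulin, came down to the parental level. It stood at 49.0, 52.6 and 50.1 CPM in untreated MYC-ER cells, 12.5, 13.4 and 12.4 at 8 h, 0.786, 0.852 and 1.05 at 24 h, and 1.37, 1.41 and 1.67 at 48 h. These 4 groups did not overlap. Its log2 differences from 0 h were -1.98 (SE 0.12), -5.82 (SE 0.15) and -5.09 (SE 0.15). Parental libraries ran from 0.983 to 1.59 CPM at all times, overlapping the MYC-ER libraries at 24 h (log2 difference -0.48, SE 0.14) and at 48 h (0.18, SE 0.13).

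**Figure D3:**
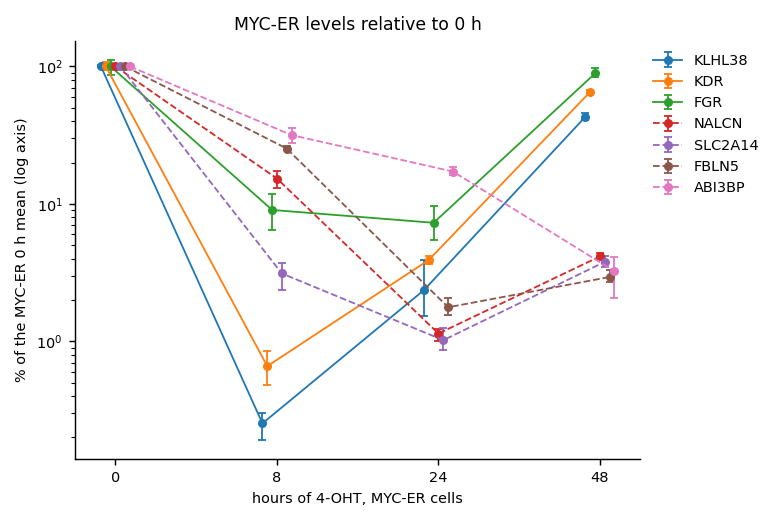
Mean level of each gene in MYC-ER cells as a percent of its own 0 h mean, on a log axis, with bars from the lowest to the highest of 3 libraries. Solid lines (KLHL38, KDR, FGR) end at 43.1% to 89.1% at 48 h and dashed lines (NALCN, SLC2A14, FBLN5, ABI3BP) at 2.94% to 4.15%.

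Correlations of log2 CPM follow this division only in part. Over the 12 MYC-ER libraries, Pearson's r was 0.993 between KLHL38 and KDR, 0.927 between KDR and FGR, and 0.976 between NALCN and FBLN5. It was -0.085 between KDR and ABI3BP, the lowest of the 21 pairs. SLC2A14 lay between the groups, with r of 0.725 to FGR, 0.686 to KLHL38 and 0.641 to KDR, all above its 0.623 to ABI3BP, and 0.919 to NALCN. Over the 12 parental libraries the 21 pairs ran from -0.665 to 0.476, with a median of -0.108. The libraries share 4 group means and the genes were chosen on the MYC-ER libraries, so these values add no support for a shared course.

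Per kilobase of merged exons, the level in MYC-ER at 0 h was 10.2 CPM per kb for FBLN5, 7.48 for SLC2A14, 6.4 for NALCN, 5.96 for KDR, 5.56 for KLHL38, 1.37 for ABI3BP and 1.09 for FGR. Against parental 0 h alone, all 7 were higher without overlap, as 32.6% of tested genes were, with log2 differences, KLHL38 left aside, from 2.52 (FGR) to 9.82 (SLC2A14). At 48 h, 6 of 7 were still higher without overlap, against 33.5% of genes. The KLHL38 difference of 9.21 rests on 9 counts in a single parental 0 h library and is not a measured size, since the value without that library, replicate 3, was 13.79; it cannot be ranked against the others.

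The parental line carries no fusion, so its time course shows these genes under 4-OHT alone. KDR, FGR and NALCN changed in it, and KLHL38, SLC2A14, ABI3BP and FBLN5 did not pass the test at any time (edgeR's quasi-likelihood test, Benjamini-Hochberg adjusted over 22158 genes, threshold 0.05). At 8 h, 2 of the 7 genes were called lower, against 16% of all genes. At 24 h, 2 were called lower, against 21.7% of all genes, and at 48 h 1, against 20.1%. With 7 genes, shares of this size are near the background and are no result about the group; the values of single genes follow.

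KDR fell in parental cells at 8 h and returned. It stood at 1.27, 1.51 and 0.975 CPM at 0 h, 0.579, 0.703 and 0.377 at 8 h, 1.15, 1.2 and 1.53 at 24 h, and 1.67, 1.46 and 1.86 at 48 h. All 8 h libraries lay below all others. The log2 difference at 8 h was -1.18 (SE 0.19, adjusted p = 0.000105), and from 8 to 24 h it rose by 1.23 (SE 0.19, adjusted p = 0.000507). Across 16 alternatives the adjusted p reached at most 0.0404 for the fall and 0.00698 for the rise. At 48 h the difference from 0 h was 0.41 (SE 0.17, adjusted p = 0.0693), and without parental 0 h replicate 2 it passed the threshold at 0.57 (adjusted p = 0.0154).

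FGR fell in parental cells at 8 and 24 h and was back at 48 h. It stood at 0.638, 0.634 and 0.714 CPM at 0 h, 0.312, 0.399 and 0.432 at 8 h, 0.319, 0.227 and 0.349 at 24 h, and 0.641, 0.700 and 0.713 at 48 h. The 8 and 24 h libraries lay below all libraries at 0 and 48 h. Tested against 0 h, the log2 differences were -0.79 (SE 0.21, adjusted p = 0.0069), -1.14 (SE 0.21, adjusted p = 0.000201) and 0.05 (SE 0.21, adjusted p = 0.893). From 24 to 48 h FGR rose by 1.19 (SE 0.21, adjusted p = 0.000647). The call at 8 h was lost without parental 8 h replicate 1 (-0.65, adjusted p = 0.0505) and when no other group entered the fit (-0.80, adjusted p = 0.0521).

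NALCN fell in parental cells by less, and stayed lower. It stood at 1.42, 2.05 and 1.65 CPM at 0 h, 2.30, 1.79 and 1.86 at 8 h, 1.39, 1.01 and 1.17 at 24 h, and 1.09, 1.22 and 1.2 at 48 h. The 24 and 48 h libraries lay below all at 0 and 8 h. The log2 differences from 0 h were 0.22 (SE 0.13, adjusted p = 0.247), -0.52 (SE 0.14, adjusted p = 0.00408) and -0.55 (SE 0.14, adjusted p = 0.00282), and from 8 to 24 h it fell by 0.73 (SE 0.14, adjusted p = 0.00201). Both calls were lost when no other group entered the fit (adjusted p = 0.0887 and 0.0746). Without parental 0 h replicate 2 the 8 h value was 0.37 and passed the threshold (adjusted p = 0.0343).

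The other 4 genes did not pass the test in parental cells. FBLN5, at a level close to that of KDR there, had log2 differences from 0 h of -0.23 (SE 0.13), -0.18 (SE 0.13) and -0.10 (SE 0.13), with adjusted p of 0.22, 0.322 and 0.597. ABI3BP had 0.72 (SE 0.45), 0.97 (SE 0.44) and 0.06 (SE 0.47), with adjusted p of 0.248, 0.0815 and 0.948. Without parental 0 h replicate 2, ABI3BP passed the threshold with 1.44 after 8 h (adjusted p = 0.0228) and 1.69 after 24 h (adjusted p = 0.00585), and without parental 24 h replicate 3 it did so with 1.23 (adjusted p = 0.039). These libraries held 4 to 47 ABI3BP counts. For KLHL38 and SLC2A14 a change from 0 h was not detectable at 0 to 17 counts per library, with adjusted p of at least 0.564 and 0.279.

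Where the steps did not involve parental 0 h, between 8 and 24 h, 1 of 7 genes was called higher (KDR) and 1 lower (NALCN), against 6.48% and 4.46% of all genes. Between 24 and 48 h, 1 was called higher (FGR), against 6.44%. The size of the parental changes was far below that in MYC-ER cells: for KDR at 8 h -1.18 against -7.24, and for FGR at 24 h -1.14 against -3.78. The difference between the lines in these changes was not tested, since the MYC-ER values entered the choice.

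**Figure D4:**
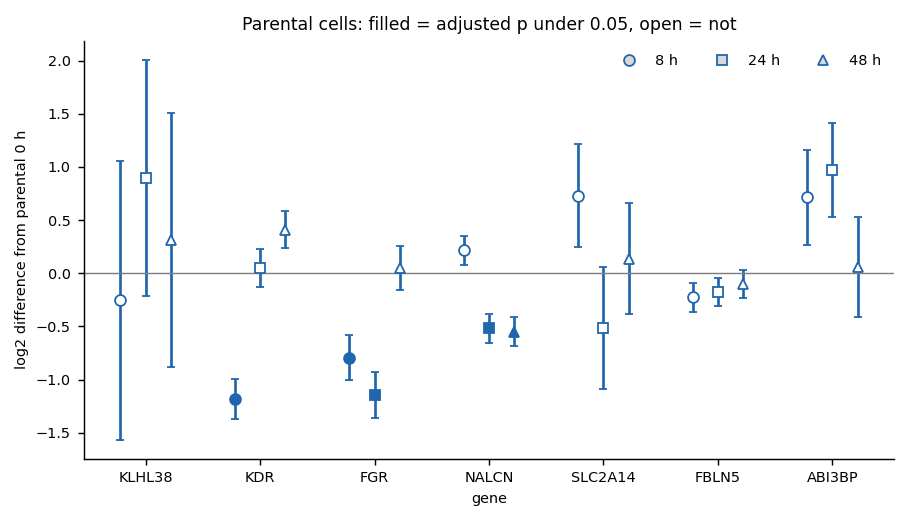
Log2 difference from parental 0 h at 8 h (circles), 24 h (squares) and 48 h (triangles) for the 7 genes, with bars of 1 standard error. Filled points passed an adjusted p of 0.05, namely KDR at 8 h, FGR at 8 and 24 h, and NALCN at 24 and 48 h.

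Most other genes of the VEGF system moved opposite to KDR. Of 9 further ligands and receptors 7 were tested. At 8 h in MYC-ER cells 5 of the 7 rose and 2 fell, where 32.2% of all genes rose and 35.4% fell. Their median log2 difference was 1.58, against -0.10 over all genes. The co-receptors NRP1 and NRP2 rose from 1.91 to 6.84 CPM and from 4.62 to 47.9 CPM (log2 1.84 and 3.37), and the ligands VEGFA and VEGFC from 73.6 to 220 and from 0.73 to 11.3 CPM (1.58 and 3.96). The ligand VEGFD had a course like that of KDR: it fell from 0.617 to 0.0298 CPM at 8 h (-4.32), rose from 8 to 24 h (2.84, to 0.221 CPM) and was at 0.434 CPM at 48 h, when its difference from 0 h (-0.51) was not called. VEGFB fell from 58.2 to 42.7 CPM (-0.45) and was still lower at 24 and 48 h (-0.37 and -0.29). The sister receptor FLT1 was at 0 counts in every library and FLT4 held at most 21 counts. In parental cells at 8 h, NRP1 (0.78), NRP2 (0.46), VEGFA (0.50) and VEGFC (0.43) rose as KDR fell, VEGFB fell (-0.61) and VEGFD was not called (-0.73).

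Of the NALCN channel complex, UNC80 and NALF1 were at 0 counts in every library, which leaves UNC79 and NALF2. UNC79, a large scaffold subunit, was at 1.07 CPM in MYC-ER at 0 h and fell to 0.184, 0.324 and 0.538 at 8, 24 and 48 h (log2 -2.53, -1.71 and -0.99). It was lowest at 8 h, when NALCN was still at 15.3% of its first level. NALF2, a further subunit, rose from 7.21 to 24.1 CPM at 8 h (1.74) and was at 4.2 CPM at 48 h (-0.78).

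Most of FGR's relatives also went another way at 8 h. Among 8 tested Src-family kinases and regulators, 6 rose and 1 fell in MYC-ER cells, where 32.2% of all genes rose and 35.4% fell. Their median was 1.06, against -0.10 over all genes. FYN rose from 0.602 to 2.22 CPM (1.88), and the regulators CSK and PAG1, which hold Src kinases inactive, rose by 1.41 (from 43.4 to 115 CPM) and by 2.81 (from 4.27 CPM). FRK fell from 18.5 to 5.28 CPM (-1.81) and stood at 19.2 CPM at 48 h, a return like that of FGR. At 24 h, when the FGR mean was lowest, 4 of the 8 were higher than at 0 h and 2, SRC and FRK, were lower. Over all genes these shares were 30.4% and 31.2%. LCK and BLK, further members of the family known from blood cells, had at most 17 counts in any library.

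**Figure D5:**
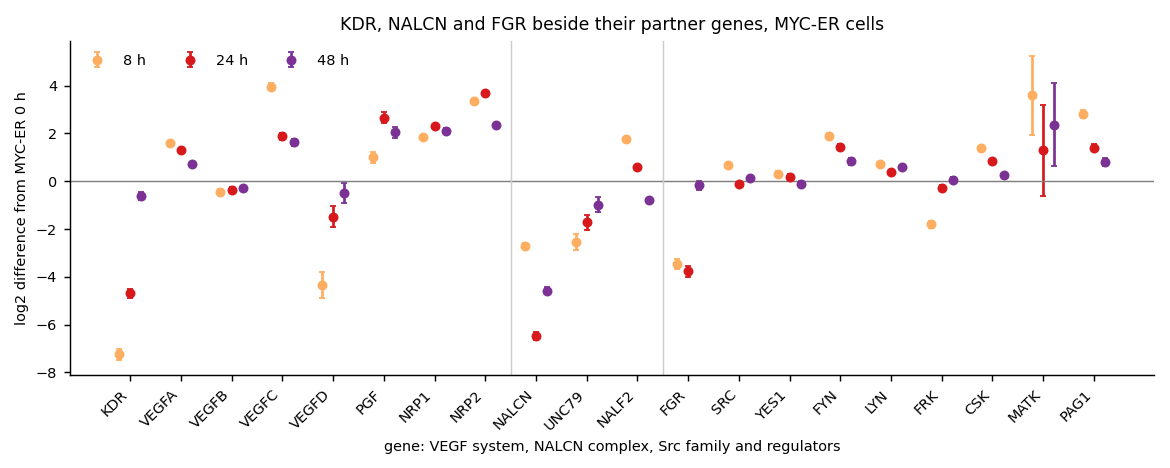
Log2 difference from MYC-ER 0 h at 8, 24 and 48 h, with bars of 1 standard error, for KDR, NALCN and FGR and the tested genes of their lists, in 3 blocks. KDR, NALCN and FGR lie below 0 at every time, FGR at 48 h by less than its standard error (-0.17, SE 0.19). NRP1, NRP2, VEGFA, VEGFC and PGF lie above 0 and UNC79 below.

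Among facilitative glucose transporters, SLC2A12 (GLUT12) stood out by its values, and was picked out after they were seen. It went from 10.8 CPM in MYC-ER at 0 h to 0.201, 3.33 and 16.7 (log2 -5.75, -1.70 and 0.63), lowest at 8 h as KDR was, and unlike SLC2A14 above its first level at 48 h. In parental cells it fell at 8 h from 0.895 to 0.418 CPM (-1.10) and was at 1.53 CPM at 48 h (0.78), both called. Of 9 tested transporters, SLC2A3 and SLC2A14 left out, 2 rose and 5 fell at 8 h in MYC-ER cells, with a median of -0.61, where 32.2% of all genes rose and 35.4% fell. The main basal transporter SLC2A1 rose from 212 to 318 CPM (0.58), and the fructose transporter SLC2A5 fell from 23.6 to 6.18 CPM (-1.93).

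The other elastic fibre genes went both ways. Of 18 tested, 8 rose and 8 fell at 8 h in MYC-ER cells, against 32.2% and 35.4% of all genes, with a median of 0.06. The crosslinking enzyme LOX fell from 242 to 65.4 CPM (-1.89) and stayed at 58.4 CPM at 48 h (-2.05), whereas LOXL2, of the same enzyme family, rose from 2.05 to 57.3 CPM (4.81). The fibulins FBLN1 and EFEMP1 fell from 132 to 55.2 CPM (-1.25) and from 107 to 44.6 CPM (-1.26), and both had risen again by 48 h, to 179 and 90.9 CPM. Elastin (ELN) itself held at most 6 counts in any library. In parental cells FBLN1 also fell at 8 h (-0.38), and LOX and EFEMP1 were not called.

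Of 30 tested genes of the Kelch-like family, CUL3 and RBX1 included, 10 rose and 12 fell at 8 h in MYC-ER cells, with a median of -0.06. Over all genes 32.2% rose and 35.4% fell, so these counts are near the background and are no result about the family. KLHL24 had the course of KLHL38, from 94.7 CPM to 12.4, 30.8 and 68.1 (log2 -2.94, -1.62 and -0.48), and in parental cells it fell at 8 h (-0.56). KLHL3 fell from 7.01 to 0.398 CPM (-4.14) and was at 1.11 CPM at 48 h. The ligase core genes CUL3 and RBX1 rose at 8 h (0.43 and 0.52). Of the ABI family, named for the partner of ABI3BP, ABI3 held at most 4 counts, and ABI1 and ABI2 fell at 8 h by 0.21 and 0.59 on the log2 scale.

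For each gene, those with the most similar log2 CPM over the 24 libraries were found, at 1 CPM or more in their highest group. The closest to KDR were MAOA (r = 0.986), MR1 (0.985) and CALCOCO1 (0.982). MAOA, the mitochondrial monoamine oxidase, went from 821 CPM in untreated MYC-ER cells to 95.9, 177 and 517, and in parental cells from 174 to 108, 143 and 191. FGR was closest to PLXNB1 (0.977), a semaphorin receptor, then UAP1L1 and GTF2IRD1, and KLHL38 to TMEM42 (0.968), BBS1 and COA5.

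NALCN and FBLN5 shared RASA3 (0.974 with each) and the protease MMP7 (0.973 and 0.968). NALCN was closest to MME (0.976), the membrane peptidase neprilysin, which fell from 271 CPM in untreated MYC-ER cells to 5.07 CPM after 24 h, and stood at 21.1 CPM after 48 h. TGFBI was also near FBLN5 (0.972). SLC2A14 was closest to the protease gene CTSH (0.981), then RASSF4 and IL18R1. ABI3BP was closest to RALGDS (0.947), then NPHP4 and WDR37. The genes nearest to the mean of the 7 were TMSB15B (0.983), GSTA4 (0.979) and LMBR1L (0.977). These are descriptions over 24 libraries that share 8 group means.

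Markers of other cell types were read beside the genes known from them. For KDR, the endothelial marker CDH5 was at 0 counts in every library, 6 of 10 endothelial markers stayed under 1 CPM throughout, and their summed level was 1.42 to 1.99 CPM in MYC-ER at 0 h, below the 4.81 to 5.1 CPM of parental cells at 0 h. Of the 6 tested, PECAM1, TEK and ROBO4 started below the parental level in MYC-ER cells (called) and rose at 8 h. ESAM, a junction protein, moved with KDR: it went from 1.43 CPM in untreated MYC-ER cells to 0.325, 0.321 and 0.706, the last a rise from 24 h (1.14), and in parental cells it fell at 8 h (-0.89). The part of these markers in the level of KDR was not tested.

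For FGR, the myeloid markers TYROBP and AIF1 were at 0 and PTPRC held at most 2 counts; the sum over 10 markers, mostly CSF1R and CD68, was 61.4 to 65.5 CPM in untreated MYC-ER cells, and 39.4 to 42.8 CPM after 8 h. Of the 5 tested, CD14, ITGAM, CSF1R and FCER1G fell at 8 h and CD68 rose; their part in the level of FGR was not tested. For NALCN, the neuronal marker STMN2 was at 0, and the sum over 10 neuronal markers was 12.9 to 14.1 CPM in untreated MYC-ER cells, and 61.2 to 67.2 CPM after 8 h. That sum is mostly TUBB3, which rose from 2.2 to 62.8 CPM. Of the 6 tested, SYN1 also rose at 8 h and MAP2 and NEFL fell (median log2 -0.27). MAP2 (8.98 against 1.45 CPM) and NEFL were, like NALCN, higher in MYC-ER than in parental cells at 0 h, and MAP2 was at 0.739, 1.2 and 3.23 CPM at 8, 24 and 48 h in MYC-ER cells; their part in the level of NALCN was not tested. Of 10 skeletal muscle markers, MYOD1, MYOG, MYH1, MYH2 and MYH7 were at 0, and only TNNT1 passed 1 CPM in some library. Their sum was 28.8 to 32.5 CPM for untreated MYC-ER and 31.4 to 51.3 CPM for untreated parental libraries. Between the lines at 0 h, 3 were tested: TNNT3 was called higher on the MYC-ER side and TNNT1 lower. None of the 3 was called at 8 h in MYC-ER cells. The part of the muscle markers in the levels of the 7 genes was not tested.

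Of 10 fibroblast markers 5 were tested; COL1A1, DCN and POSTN fell at 8 h in MYC-ER cells and none rose. PDGFRB was higher at 24 and 48 h (0.97 and 0.77). At 0 h COL1A1, DCN and LUM were called above their parental level and POSTN below it (-1.49). Over all genes 31.6% were called higher and 32.7% lower in that comparison. The summed level was 372 to 379 CPM in untreated MYC-ER cells. It was 102 to 110 CPM after 8 h, 80.1 to 91.9 CPM after 24 h and 122 to 131 CPM after 48 h, against 125 to 140 CPM in untreated parental cells. The sum was nearly all COL1A1 (215 CPM at MYC-ER 0 h) and DCN (157 CPM), while 6 of the 10, among them COL1A2, COL3A1, PDGFRA and THY1, stayed under 1 CPM in every library. Their part in the levels of NALCN, FBLN5 and ABI3BP was not tested.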

How the data were processed

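The table held whole-number counts per gene, deposited by the authors with 1 column per library and no normalisation. The submitters' processing notes name Trimmomatic 0.39, STAR, StringTie 2.1.3b and GRCh38 without roles; the counting program, its use of strand and the annotation release are not given in the sources used here. If StringTie made the counts, they are rounded estimates. Groups were taken from the labels. Genes passing edgeR's filterByExpr (22158 of 60668) were scaled by TMM and fitted over all 24 libraries in edgeR 4.0.16 (R 4.3.3), with quasi-likelihood tests, two-sided, and Benjamini-Hochberg adjustment within each contrast (threshold 0.05, common biological coefficient of variation 0.151). CPM was computed on TMM-scaled totals; its log2 used 2 as the prior count. A gene is called, rose or fell where the adjusted p was under 0.05; for the 7 genes and SLC2A3 in MYC-ER libraries these words describe levels, with no test. An error of ± is a standard deviation over 3 libraries.

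The 7 genes and all gene and marker lists were chosen with earlier results of these data known. Named genes were the 7, SLC2A3, MYC, ESR1, any gene of the lists, and the 3 genes most correlated with each of the 7 and with their mean. The fit was tested on simulated counts. Alternatives were DESeq2 1.42.0, library size alone, other filters, fits without the other groups, a replicate block, removal of a lowess trend on GC content (span 0.3) and leaving out each library. The main fit did not pair libraries by replicate number. Sequences came from GENCODE 29 and RefSeq; the identifiers in the table were matched to symbols without their version. Python scripts used pandas 2.3.3, numpy 2.4.6 and matplotlib 3.10.9.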

Additional observations from a re-analysis of the deposited data

Results flagged for a closer look

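In 4 comparisons every library of one line moved opposite to every library of the other. The difference between the lines was not tested, and nothing is read from these values. The MYC-ER fall of SLC2A14 belongs to the pattern it was chosen for. SLC2A3 was not among the chosen genes and was added as the close relative of SLC2A14. SLC2A14 at 8 h was higher than at 0 h in all 3 parental libraries, with a log2 difference of 0.73 (not called) on 6 to 17 counts per library, too few to show a change, against a fall by 5.00 in MYC-ER cells. SLC2A3 rose in parental cells by 1.27 at 8 h, 1.90 at 24 h and 2.14 at 48 h, against differences of -1.08, -2.14 and -2.34 in MYC-ER cells. SLC2A3 counts in MYC-ER cells at 0 h may include reads of SLC2A14.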

How the results depend on the processing

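No called difference of the 7 genes changed direction. Of 535 values of the 35 tests of the 7 genes in parental cells under an alternative, 522 stayed on their side of the threshold, 9 gained a call and 4 lost one. Values not called crossed 0 in 27 cases in 11 of these tests, with differences of at most 0.65 in size to begin with, and most widely for KLHL38 (0.31 at 48 h, with -4.57 to 4.91 across alternatives). The comparisons within and with MYC-ER cells, which have no test, moved by more than the replicate SD in 31 of 980 values and crossed 0 in 4, all for FGR against parental cells at 8 and 24 h. Counts of called genes in the gene lists moved by over 1.5 times in 126 of 1568 values. The calls gained or lost are named with the results or are KDR at 48 h (DESeq2 adjusted p 0.0285, at least 10 counts in every library 0.045), ABI3BP at 24 h (DESeq2, 0.98, adjusted p 0.019) and SLC2A14 from 8 to 24 h (DESeq2, -1.27, adjusted p 0.0355). With no other group in the fit, edgeR called 1452 genes in parental cells at 8 h (6870 with all groups), 4923 at 24 h (9503), 3274 at 48 h (8978) and 4579 from 8 to 24 h (2424). DESeq2 called 3644 in that last step, and leaving out 1 library at a time gave 1008 to 1928. Deviations from the group means correlated at -0.0776 to 0.0943 over 84 same-numbered pairs and at -0.0577 to 0.0849 over 168 other pairs. Of 24 libraries, 12 correlated best with their own number, so whether the numbers pair libraries is not settled by these values. With a replicate block, KDR at 8 h in parental cells was -1.18 (adjusted p 0.000202). Scaling by library size alone moved the median of all genes by up to 0.206 (log2). Requiring at least 10 counts in every library leaves out KLHL38, SLC2A14 and ABI3BP, so depth limits what can be said of them in parental cells.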
